A study of Mus musculus with 4 samples.

Results

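The regulated exocytosis machinery was followed through 9 genes, of the 32285 genes in the deposited matrices. They were read by symbol from 4 single-cell libraries of mouse pancreatic islets: Snap25, Stx1a, Vamp2, Syt7, Syt13, Sytl4, Exph5, Rab27a and Rab3a. All 9 were found. The libraries came from male mice aged 8 weeks, with 1 library in each of 4 groups. Both Tet libraries carried Tet2(flox/flox) and Tet3(flox/flox) alleles: the Cre-negative library had no Pdx1 cre and the Cre-positive library had it. Pdx1 drives Cre in the pancreatic lineage, so the label does not limit recombination to beta cells. The other pair were the control offspring, born to control mothers, and the IHG offspring, born to mothers of the intrauterine hyperglycemia model; no genotype is given for them. The labels do not say how many mice gave islets to each library. Islets were cultured, dissociated with trypsin and captured in microwells for 3′ counting of unique molecular identifiers (UMIs, 1 per captured RNA molecule).

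Islet endocrine cells store peptide hormones in dense-core granules and release them when calcium enters the cell. The granule SNARE protein VAMP2 pairs with the plasma membrane SNAREs syntaxin 1A and SNAP25, and the complex drives membrane fusion. Synaptotagmins add calcium sensing, and the RAB proteins RAB3A and RAB27A, with effectors such as granuphilin (Sytl4) and exophilin 5 (Exph5), bring granules to the membrane.

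The floxed pair held 6421 barcodes without Cre and 10145 with Cre, the offspring pair held 16459 for control mothers and 12684 for IHG mothers, with median depths of 5334 to 7373 UMIs, and 5572, 8975, 14730 and 11196 cells were analysed. Pairs of libraries shared 58 to 246 barcodes, 0.903% to 2.04% of the smaller library. Cells were clustered without the exocytosis genes among the variable genes and named from marker genes, giving 3237, 2777, 10654 and 6022 beta-like cells in the order above. Ins2 was at 173334 to 241323 CPM (UMIs of a gene scaled to the same total in every library and class) in beta-like cells, and Gcg, the glucagon gene, at 112680 to 347935 CPM in alpha-like cells. The Cre-negative library stood apart: 86.1% of its beta-like cells and 80.8% of its alpha-like cells lay in clusters that held under 10% of those of any other library. In beta-like cells Tet2 was at 46.5 CPM without Cre and 33.2 with it, and Tet3 at 34.4 and 26.1; 3′ counts need not cover a floxed exon, so they do not check the deletion, and the IHG offspring had 32.6 and 26.1 CPM. With 1 library per group no difference between groups was tested. Intervals are exact 95% intervals for counting error only, and do not cover variation between mice.

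RefSeq promoter sequence (GRCm38.p6) was matched for 5 of the 9 genes. The 250 bases before the start site are shown for 3 that stood out below: Sytl4, the member nearest to beta-cell restriction, Stx1a, the member lower in beta-like than in other endocrine cells, and Exph5, the member past the size rule in beta-like cells in the maternal comparison. Capitals mark CpG dinucleotides, the usual site of the cytosine methylation that TET enzymes oxidise. Each is written 5′ to 3′ on the strand of its gene.
Sytl4 (chrX:133981813-133982062, minus strand): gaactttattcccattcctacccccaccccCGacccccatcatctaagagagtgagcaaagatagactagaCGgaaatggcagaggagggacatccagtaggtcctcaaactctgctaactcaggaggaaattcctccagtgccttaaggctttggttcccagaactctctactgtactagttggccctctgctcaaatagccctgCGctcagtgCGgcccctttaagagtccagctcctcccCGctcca
Stx1a (chr5:135023232-135023481, plus strand): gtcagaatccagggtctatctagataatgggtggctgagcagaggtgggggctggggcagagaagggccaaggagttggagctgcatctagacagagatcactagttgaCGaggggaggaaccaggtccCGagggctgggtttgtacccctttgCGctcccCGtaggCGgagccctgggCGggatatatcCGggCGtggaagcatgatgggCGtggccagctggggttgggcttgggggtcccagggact
Exph5 (chr9:53301420-53301669, plus strand): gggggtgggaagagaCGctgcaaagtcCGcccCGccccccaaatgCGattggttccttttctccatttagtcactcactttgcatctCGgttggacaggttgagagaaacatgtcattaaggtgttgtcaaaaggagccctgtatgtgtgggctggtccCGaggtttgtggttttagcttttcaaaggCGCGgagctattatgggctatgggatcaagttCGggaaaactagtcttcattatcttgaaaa
Sytl4 had 5 CpGs in this window, and Stx1a and Exph5 had 9 each. The median over 32851 mouse promoter windows of this length was 6. A GC box (GGGCGG, either strand) was found in the Stx1a and Exph5 windows and not in that of Sytl4, and 32.7% of all windows held it. Methylation was not measured in these libraries.

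Of the 9 members, 8 were higher in beta-like than in alpha-like cells in all 4 libraries, and the exception, Stx1a, was lower in all 4. Among all genes measured, 27.6% were higher and 35.4% lower in all 4 libraries. The Vamp2 margin over alpha-like cells in the Cre-negative library was small, 128 against 125 CPM. With cells over 1% of UMIs from hormones of other classes left out, it turned, to 127 against 132 CPM. Against delta-like cells 4 members were higher in every library (Snap25, Syt13, Sytl4 and Rab3a, beside 18.1% of all genes), Stx1a was lower (46.5%) and 4 had mixed directions. In the library order above, delta-like cells held Sst, the somatostatin gene, at 240709, 128006, 96002 and 247446 CPM. Ins2 there was at 6274, 38720, 103691 and 16479 CPM. Of these cells, 90.5% to 98.8% had over 1% of UMIs from hormones of other classes. With such cells left out, 14 to 49 delta-like cells per library remained. The mean log2 difference then stayed positive for the 4 named members, and that of Exph5 went from 0.07 to -0.31. Against pp-like cells, named from a marker list with Ppy (pancreatic polypeptide) and Pyy, 5 members were higher (19.1%), Stx1a was lower (40.6%) and 3 were mixed. In the Cre-negative library that class held more Pyy (146199 CPM) than Ppy (26966 CPM). Against endothelial-like cells 8 members were higher (29.1%) and Stx1a was lower (48%). These are descriptions, because the classes were made from the same cells, and the 4 libraries behind each mean ± SD are 4 different groups.

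**Figure D1:**
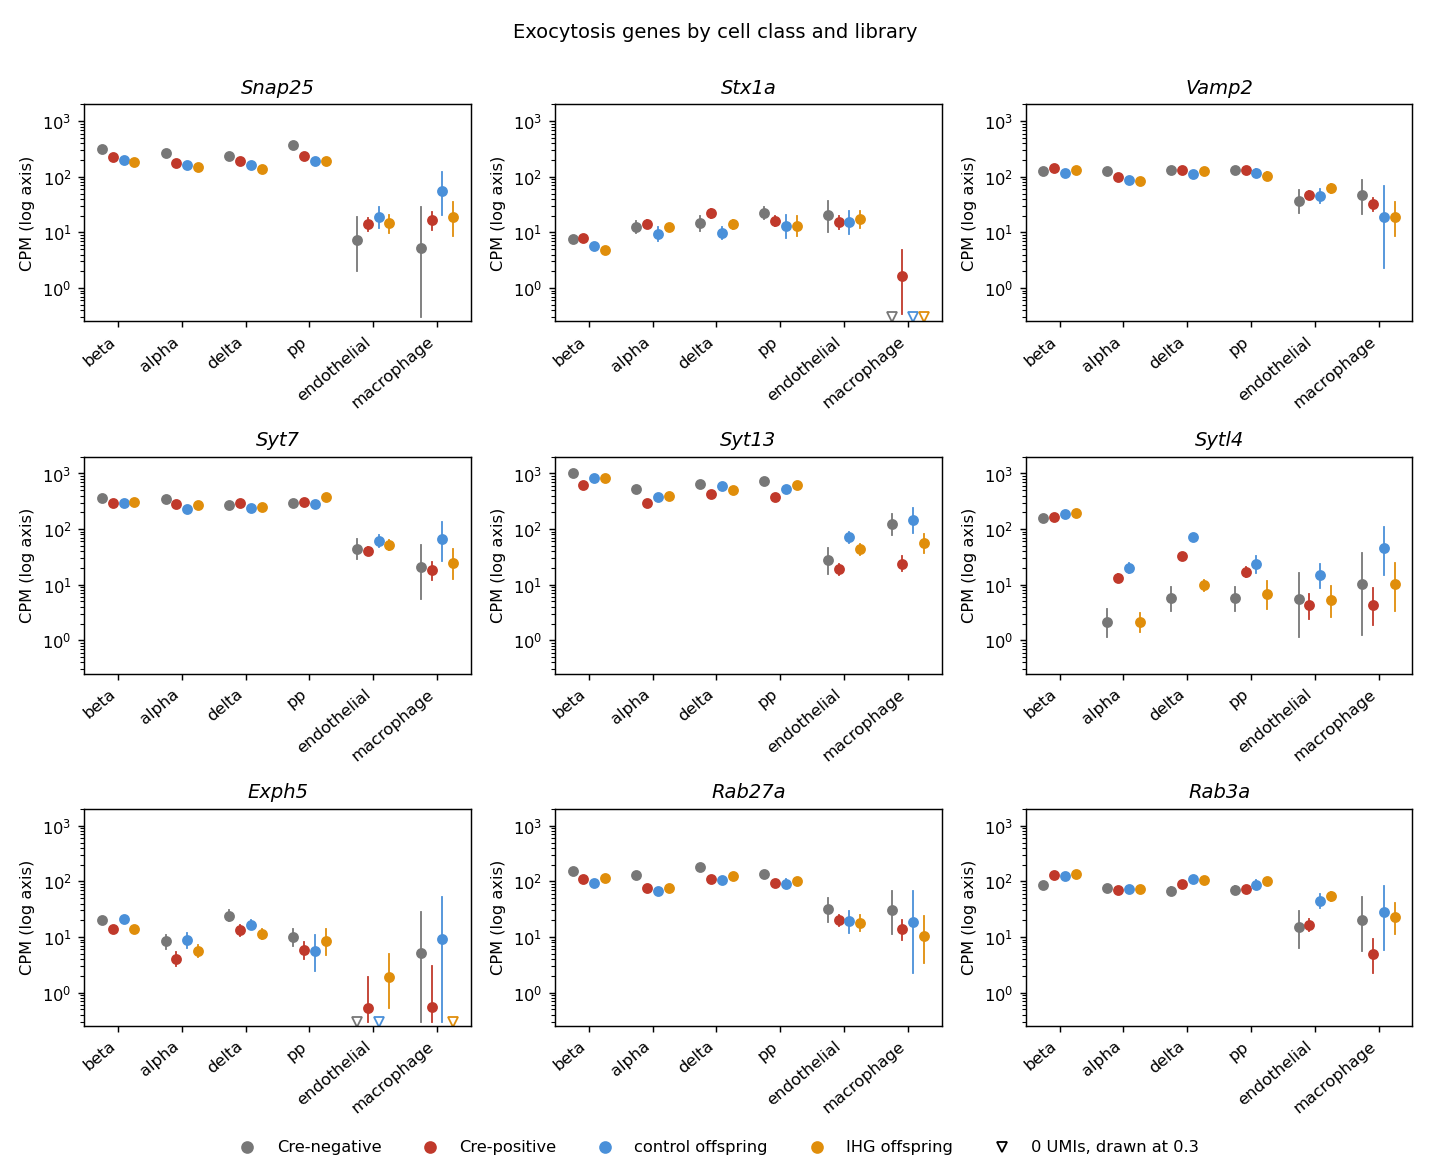
Level of each member (CPM, log axis) in 6 cell classes, 1 point per library with its 95% counting interval; open triangles mark 0 UMIs. Sytl4 sits between 155 and 193 CPM in beta-like cells and at or below 71.8 CPM elsewhere, while Stx1a is lowest among the endocrine classes in beta-like cells.

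Among the SNARE proteins, Snap25, the plasma membrane SNARE cleaved by botulinum toxin A, was at 318, 228, 201 and 188 CPM in beta-like cells, in the library order given above, which is kept in every list of 4 values below. Pp-like cells held 376, 232, 189 and 194 CPM, so the order of these classes differed between libraries. Alpha-like cells were at 268, 175, 160 and 149 CPM and delta-like cells at 232, 192, 164 and 137 CPM. In all 4 endocrine classes the Cre-negative library was the highest, and the share of all genes with this pattern was not counted.

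Vamp2, the granule SNARE, was similar across 3 endocrine classes. Its beta-like level was 131 ± 12.4 CPM (SD over the 4 libraries), against 126 ± 11 in delta-like, 123 ± 13.4 in pp-like and 99.3 ± 18.5 in alpha-like cells. These ranges overlap. Endothelial-like cells had 29.0% to 47.2% of the beta-like level of the same library, whereas Ins2 there was at 1.81% to 5.67%.

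Stx1a, the syntaxin that anchors the complex in the plasma membrane, was sparse, at 7.54, 8.07, 5.67 and 4.76 CPM in beta-like cells. Alpha-like cells had 12.6, 14.2, 9.35 and 12.3 CPM, and pp-like cells had 22.7, 16.2, 13.2 and 13.2 CPM. In each library the beta-like level was below that of alpha-, delta-, pp- and endothelial-like cells. Without cells over 1% other hormones, Cre-positive pp-like cells were at 7.84 CPM (9 UMIs) against 7.88 in beta-like cells. The 14 control offspring delta-like cells then left had 0 UMIs. The remaining alpha-, delta- and pp-like levels stayed above the beta-like ones. On the log2(CPM + 5) scale the beta-like level was lower by 1.49-fold than in alpha-like cells and by 1.72-fold than in delta-like cells, averaged over libraries.

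Syt7, a high-affinity calcium sensor for granule fusion, was at 317 ± 35.3 CPM in beta-like, 313 ± 40.2 in pp-like, 280 ± 46.6 in alpha-like and 264 ± 26.1 in delta-like cells. Neighbours in that order did not differ beyond their spread. Syt13, an atypical synaptotagmin that lacks calcium-binding residues, was more uneven: 830 ± 165 CPM in beta-like, 572 ± 156 in pp-like, 546 ± 100 in delta-like and 401 ± 95.7 in alpha-like cells. Within libraries its beta-like level exceeded the alpha-like one by 2.07-fold on average (log2 difference 1.05 ± 0.08, higher in 4 of 4).

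Sytl4 encodes granuphilin, which binds RAB27A and syntaxin and docks insulin granules. It was at 155, 166, 191 and 193 CPM in beta-like cells. Alpha-like cells had 2.16, 13.2, 19.9 and 2.15 CPM, delta-like cells 5.72, 32.5, 71.8 and 9.73 CPM, and pp-like cells 5.76, 16.8, 23.7 and 6.85 CPM. No library overlapped between beta-like and other endocrine classes. How many of all genes were separated in this way was not counted. In each of these 3 other classes the Cre-positive and control offspring libraries were the high ones. Endothelial-like cells had 5.57, 4.23, 14.7 and 5.32 CPM. These are under the 20 CPM used below as a level minimum, so the order of the low libraries is not placed.

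Ins2 moved with Sytl4 in those classes. In alpha-like cells Ins2 was at 1.24%, 10.6%, 11.9% and 1.09% of the beta-like level, and Sytl4 at 1.39%, 7.93%, 10.4% and 1.12%. In delta-like cells Ins2 was at 3.62%, 20.8%, 45.6% and 6.83%, and Sytl4 at 3.69%, 19.6%, 37.7% and 5.05%. In alpha- and delta-like cells both genes were highest in control offspring and next in the Cre-positive library. The order of the low libraries, all under 20 CPM of Sytl4 and at 2.16 and 2.15 CPM in alpha-like cells, is not placed. In pp-like cells Ins2 was at 1.33%, 16.9%, 16.5% and 3.63% and Sytl4 at 3.71%, 10.1%, 12.4% and 3.55%. The same pair of libraries was high there, but the order within it differed. When cells with over 1% of UMIs from hormones of other classes were left out, Sytl4 in alpha-like cells was at 3.2, 0.98, 3.7 and 1.9 CPM (10, 3, 6 and 10 UMIs), and the high libraries no longer stood out. Sytl4 in pp-like cells was then at 5.24, 1.74, 2.23 and 3.05 CPM (15, 2, 1 and 4 UMIs). Only 14 to 49 delta-like cells per library remained, with 0 Sytl4 UMIs, too few to place a level.

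**Figure D2:**
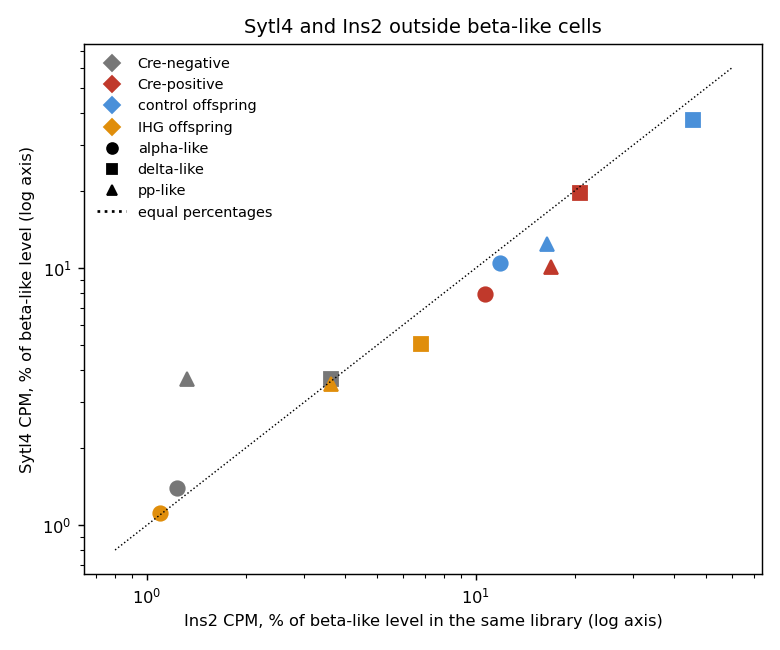
Sytl4 against Ins2 in alpha-, delta- and pp-like cells, each as a percentage of the beta-like CPM of the same library (both axes log); the dotted line marks equal percentages. Points run from 1.12% of the beta-like Sytl4 level in IHG offspring alpha-like cells to 37.7% in control offspring delta-like cells. Cre-negative pp-like cells lie above the line (Sytl4 3.71%, Ins2 1.33%). All Cre-positive and control offspring points lie below it, farthest in Cre-positive pp-like cells (Sytl4 10.1%, Ins2 16.9%).

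Exph5, a RAB27 effector, was at 19.8, 14.0, 21.1 and 13.7 CPM in beta-like cells and at 24.2, 13.2, 16.7 and 11.4 CPM in delta-like cells, which overlap. Alpha-like and pp-like cells were lower, at 6.68 ± 2.24 and 7.43 ± 2.12 CPM. Rab27a, the granule GTPase it binds, was at 132 ± 36.5 CPM in delta-like, 119 ± 24.9 in beta-like, 105 ± 19.3 in pp-like and 86.8 ± 27.7 in alpha-like cells. Rab3a, a GTPase of granule priming, was at 118 ± 22.1 CPM in beta-like, 93.4 ± 19.2 in delta-like, 83.1 ± 14.6 in pp-like and 72.3 ± 2.67 in alpha-like cells. Mpv17l2 overlaps Rab3a on the opposite strand and was at 5.80 to 14.4 CPM in beta-like cells.

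Per cell, after each cell was thinned to 3000 UMIs, Syt13 was seen in 93.7%, 83.1%, 91.1% and 91.0% of beta-like cells, and before thinning in 98.2%, 96.7%, 97.7% and 99.1%. Thinned endothelial-like cells showed it in 6.45%, 2.78%, 15.9% and 9.13%. Sytl4 was seen in 32.1%, 37.0%, 42.6% and 41.3% of thinned beta-like cells (64.1%, 72.4%, 66.7% and 72.9% before), against 1.61%, 1.39%, 4.88% and 1.74% of endothelial-like cells. Median depths were 5842 to 10133 UMIs in beta-like and 1683 to 2130 in endothelial-like cells. Of the 200 to 1599 endothelial-like cells per library, thinning left out 138 to 1239, so their thinned shares rest on fewer, deeper cells.

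The Cre comparison asks what differs with Pdx1 cre on the floxed Tet2 and Tet3 background. A gene counted as measured where either library reached 20 CPM, and as past the size rule where its CPM differed by 1.5-fold or more. In beta-like cells 1 of the 7 members measured, Syt13, was past it, against 26.6% of all genes in either direction and 19.6% lower. A share near the background is no result about the members. Syt13 was 1.65-fold lower with Cre (1.62 to 1.68), at 621 against 1025 CPM. Rab3a lay just inside, 1.498-fold higher with Cre (1.43 to 1.57), at 128 against 85.5 CPM. Under median-of-ratios scaling Syt13 was 1.43-fold lower, short of the rule, and Rab3a 1.73-fold higher, past it; Rab3a also passed under 6 other alternatives. The other members were within 1.40-fold among those measured: Snap25 was 1.40-fold lower, Rab27a 1.37-fold lower, Syt7 1.24-fold lower, Vamp2 1.14-fold higher and Sytl4 1.07-fold higher. Under the level minimum, Exph5 was at 14.0 against 19.8 CPM (log2 ratio -0.50) and Stx1a at 8.07 against 7.54 CPM. The Sytl4 direction turned within cluster 0 (1.06-fold lower) and when libraries were clustered separately (log2 ratio -0.02).

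Syt13 was lowest of the 4 libraries in the Cre-positive library in all 4 endocrine classes and highest in the Cre-negative one. The share of all genes with this pattern was not counted, and the 4 classes share the same libraries. All-gene medians were also lower with Cre, at log2 ratios of -0.22, -0.47, -0.17 and -0.32 in beta-, alpha-, delta- and pp-like cells. Under median-of-ratios scaling Syt13 was 1.43-, 1.31- and 1.36-fold lower in beta-, alpha- and delta-like cells, short of the rule in each. On the CPM scale it was 1.77-fold lower with Cre in alpha-like cells (300 against 531 CPM), 1.52-fold lower in delta-like cells (432 against 655 CPM) and 1.97-fold lower in pp-like cells (379 against 746 CPM). On GRCm38 the Syt13 gene (ENSMUSG00000027220) runs from 92915098 to 92956058 of chromosome 2, plus strand, with no other counted gene overlapping it. Within beta-like cluster 0, which held 279 Cre-positive and 228 Cre-negative cells, it was at 569 against 970 CPM. Rab3a in that cluster was 1.26-fold higher (1.05 to 1.51), and Rab27a was at 118 against 120 CPM.

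In alpha-like cells 3 members were lower with Cre (Snap25, Syt13 and Rab27a), where 43.4% of all genes were past the rule and 38.6% lower, and the median of all genes was itself lower by a log2 ratio of -0.47. No member passed under median-of-ratios scaling or with a total without hormone and mitochondrial genes. Of 9 members measured in delta-like cells, Stx1a and Sytl4 were higher and Syt13, Exph5 and Rab27a lower. Among all genes there, 24.9% were past the rule, 9.11% higher and 15.8% lower. Stx1a, Sytl4 and Exph5 met the 20 CPM minimum only in the library where each was higher. Of 7 members measured in pp-like cells, Snap25 and Syt13 were lower (35.4%, with 28.5% lower), a share near that of all genes. The delta-like Sytl4 ratio, 5.69-fold (3.5 to 9.82), came with Ins2 at 38720 against 6274 CPM; the part of Ins2-bearing cells or free RNA in it was not tested. Of the delta-like cells, 96.4% with Cre lay in cluster 7 and 95.4% without Cre in cluster 9.

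**Figure D3:**
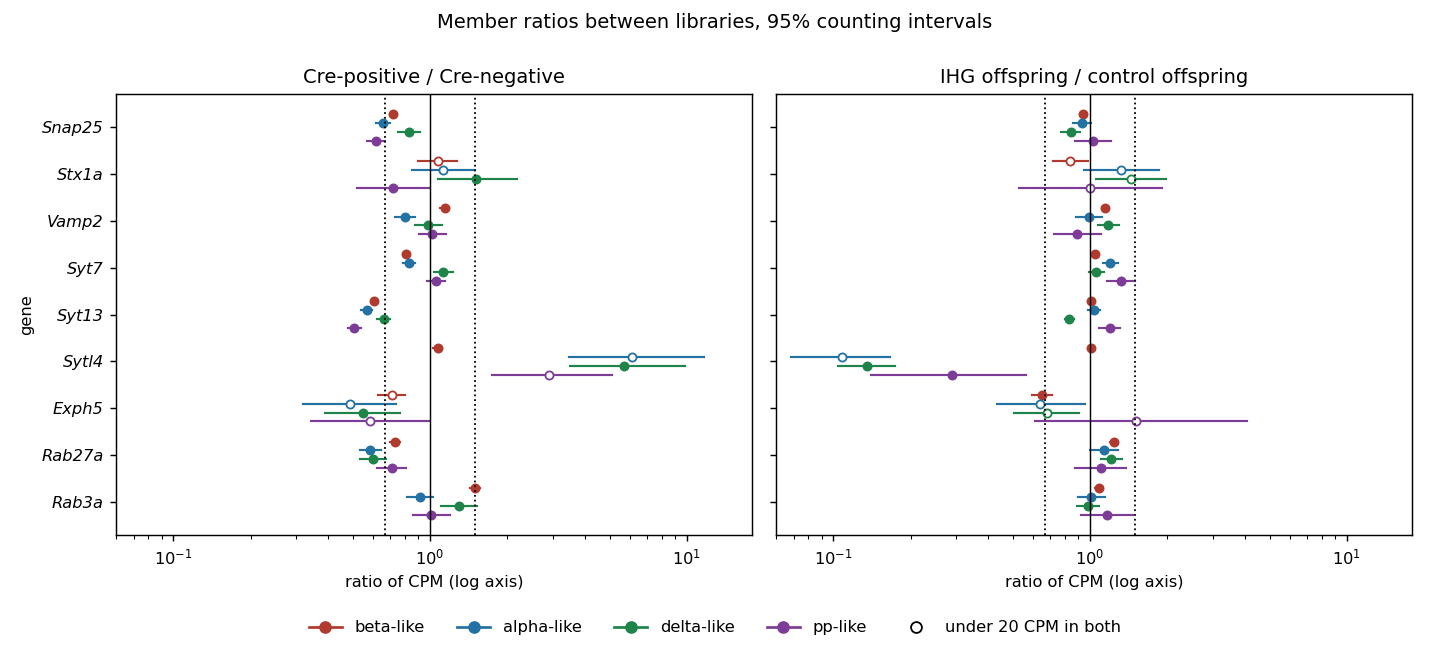
Ratio of CPM (log axis) for each member in 4 endocrine classes, with 95% counting intervals; dotted lines mark 1.5-fold and open points are genes under 20 CPM in both libraries. Syt13 lies at or past the line in all 4 classes in the Cre comparison, and beta-like Exph5 lies just past it in the maternal comparison.

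The maternal comparison asks what differs in islets of offspring exposed to intrauterine hyperglycemia. In beta-like cells 1 of 8 members measured, Exph5, was past the rule, against 1.23% of all genes and 0.67% lower. It was at 13.7 CPM in IHG offspring and 21.1 in control offspring, 1.54-fold lower (1.41 to 1.68, from 785 and 1628 UMIs). Exph5 met the 20 CPM minimum only through control offspring, the library where it was higher, so the count rests on that filter. The Cre-positive library, which has no maternal exposure on its label, was at 14.0 CPM, close to the IHG value. Exph5 fell short of 1.5-fold under median-of-ratios scaling, with a total without hormone and mitochondrial genes, with a 10% mitochondrial limit and within beta-like cluster 0, and stayed lower in each. The offspring libraries filled the beta-like clusters differently: cluster 3 held 40.9% of IHG and 10.2% of control beta-like cells, and cluster 2 held 8.82% and 31.7%. The difference was uneven between the 6 beta-like clusters with 50 cells or more of each library, and lower in 5 of them: Exph5 in cluster 1 was at 20.4 against 19.2 CPM, in cluster 3 at 10.2 against 26.1 CPM and in cluster 0 at 15.8 against 21.3 CPM.

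Rab27a was 1.23-fold higher in IHG offspring (1.19 to 1.28), Vamp2 1.14-fold higher and Rab3a 1.08-fold higher. Snap25 was 1.07-fold lower. Syt13 (1.004-fold, 0.992 to 1.02) and Sytl4 (1.01-fold, 0.987 to 1.04) had intervals that include no difference. In alpha-like cells 0 of 6 members measured passed, against 8.36% of all genes, and Exph5, under the level minimum there, was 1.56-fold lower (1.05 to 2.30). Sytl4, also under that minimum, was 9.25-fold lower in those cells (6.03 to 14.6), at 2.15 against 19.9 CPM, with Ins2 at 2640 against 26991 CPM. Sytl4 was lower in delta-like cells, by 7.38-fold (10.6% of all genes past the rule, 5.95% lower), and in pp-like cells, by 3.45-fold (18.6%, with 13.8% lower). It was the 1 of 7 members measured past the rule in each of these classes. There it met the 20 CPM minimum only through control offspring, the higher library. Ins2 was at 16479 against 103691 CPM in those delta-like cells and at 8752 against 37443 CPM in those pp-like cells. Without cells over 1% other hormones, Sytl4 was 1.94-fold lower in alpha-like cells, from 10 and 6 UMIs. In pp-like cells Sytl4 was then at 3.05 against 2.23 CPM, from 4 and 1 UMIs. The part of Ins2 in the Sytl4 ratios was not tested. Most delta-like cells of the 2 libraries lay in different clusters, 65.8% of IHG offspring cells in cluster 9 and 92.4% of control offspring cells in cluster 7. Within cluster 7 Sytl4 was at 10.8 against 73.8 CPM.

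The Cre-negative and control offspring libraries are the control of each pair, and no genotype is given for the offspring. In beta-like cells 2 of 8 members were past the rule, against 23% of all genes: Snap25 was 1.58-fold lower and Rab27a 1.63-fold lower in control offspring. That share is near the background, so it is no result about the members. Over all beta-like cells Rab3a was 1.45-fold higher and Syt13 1.23-fold lower in control offspring. Under the other scalings neither Snap25 nor Rab27a passed and Rab3a did, and no member passed within cluster 0. This comparison shares the Cre-negative library with the Cre comparison, so their values are not independent.

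A wider list of 88 exocytosis genes in 5 roles placed the members among their partners. In the Cre comparison 52 were measured in beta-like cells, of which 1 was higher and 11 lower. Of all 6464 genes measured, 450 were higher and 1270 lower (19.6%), and 755 and 675 under median-of-ratios scaling. The list median was -0.29 on the log2 scale and that of all genes -0.22. Of the SNARE proteins, Stx4a, a plasma membrane syntaxin, was 2.23-fold higher with Cre. Among SNARE regulators 2 of 9 were lower, near the all-gene share: Cadps, a granule priming factor, by 2.41-fold and Stxbp5, tomosyn, by 1.77-fold. The RAB3 relatives Rab3c (5.47-fold, at 4.03 against 22.1 CPM) and Rab3b (2.20-fold) were lower while Rab3a was at a higher level. Of the docking scaffolds and exocyst 5 of 11 were lower, beside the 19.6% of all genes and on the scale whose all-gene median was -0.22, among them Myo5a, a granule motor, by 2.78-fold, Exoc2 by 1.94-fold, Exoc4 by 1.81-fold and Erc2 by 1.77-fold. Syt14 was 2.35-fold lower.

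Between control offspring and the Cre-negative library, 2 list genes were higher and 14 lower of 52 measured, where 235 of all 6341 genes were higher and 1222 lower. Under median-of-ratios scaling those all-gene counts were 501 and 480. Among the list genes, Rab3c was 19.99-fold lower, Rab3b 3.09-fold, Myo5a 2.07-fold, Syt14 1.95-fold and Cadps 1.83-fold lower, and Stx4a was 1.85-fold higher. In the maternal comparison 1 of 48 list genes, Exph5, was past the rule, measured through its higher library alone. The list median was -0.05 and the all-gene median -0.05.

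**Figure D4:**
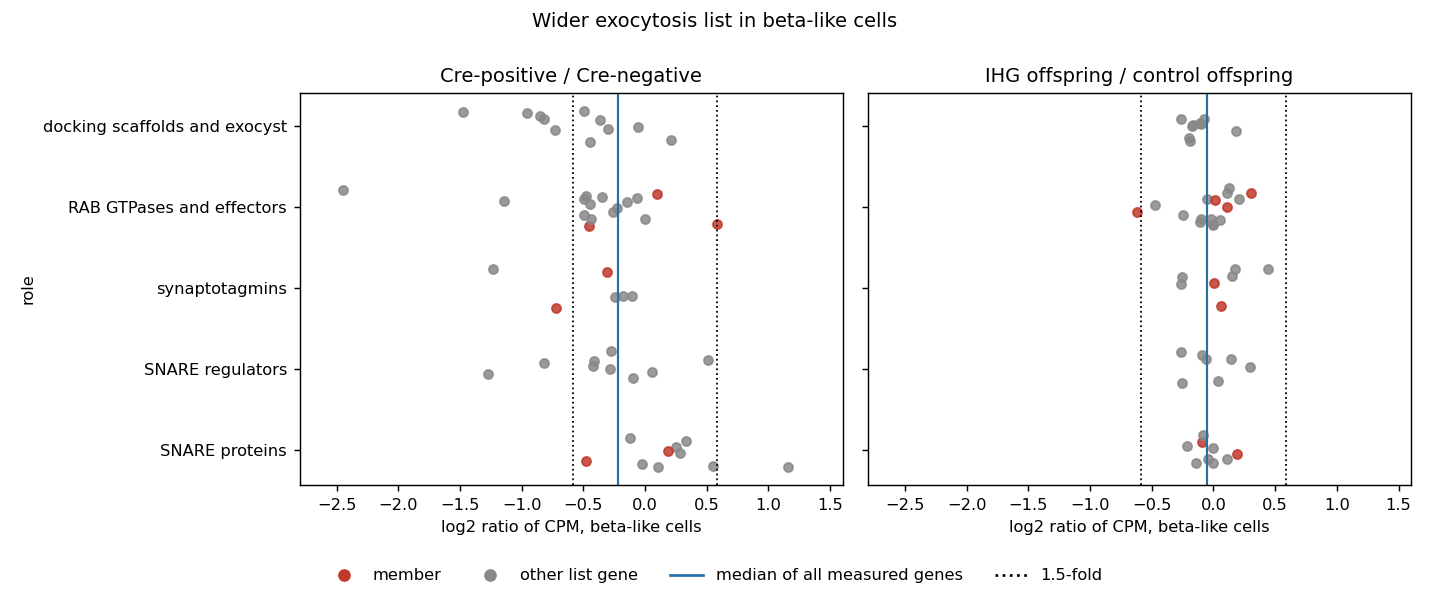
Log2 ratio of CPM in beta-like cells for each measured gene of the wider list, by role (vertical jitter only separates points); red points are members and the blue line is the median of all measured genes. The Cre panel spreads to the left of the lower 1.5-fold line with 11 genes, while in the maternal panel 1 gene lies past it.

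Across 26 profiles of a class in a library, each of 50 cells or more, the genes whose log2(CPM + 5) most resembled each member were named over 11343 genes. These correlations are descriptions, since profiles of 1 library share depth and free RNA. Snap25 was most like Kif1a (r = 0.98), then Ckmt1 and Bsn, a presynaptic scaffold. Syt13 was most like Krt7 (0.98), then Slc2a5 and Cdk8, and Syt7 most like A230051N06Rik (0.98), then Suox and Rph3al, a RAB effector of secretory granules. Rab27a was most like Fndc3a (0.96), then Slc35g1 and A230051N06Rik. Sytl4 was most like B830017H08Rik (0.96), with G6pc2 (0.96), the islet glucose-6-phosphatase, and Tmem215 (0.96) next. Vamp2 and Rab3a were both most like 2210016L21Rik (0.94 and 0.93), with Slc25a1 among the 3 nearest of each, beside Ndrg4 for Vamp2 and Lancl1 for Rab3a. Exph5 was most like Kcnmb2 (0.92), then Dennd2d and Gipr, the GIP receptor (0.91). Stx1a was most like Sec23a (0.93), then Tuba1a and Cers4. Among the members themselves Syt7 and Rab27a were closest (0.93), and Stx1a and Sytl4 were farthest apart (-0.37).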

How the data were processed

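The deposited files hold raw UMI counts per gene and barcode, made by the authors; Cell Ranger, Seurat and the mm10 build are named per the submitters' processing notes, without versions or settings. Cells with 500 genes or more and at most 20% mitochondrial UMIs were kept, and the 6% of cells with the highest Scrublet doublet scores were removed from every library (its automatic threshold marked 0 to 4.39%). Scanpy 1.11.5 clustered all libraries together (2000 variable genes without the exocytosis list, 30 components, 15 neighbours, Leiden resolution 1). Clusters were named from marker lists; the naming rule, the members and the gene lists were chosen with earlier results of these data known. Counts were summed per class and library and given as CPM. Ratios carry exact conditional binomial (Clopper-Pearson) 95% intervals, and levels carry exact Poisson ones. The ratio calculation was checked on data simulated with counting error alone, which does not test variation between cells or libraries. With 1 library per group there is no replicate and no test. Named genes were the members, list genes past 1.5-fold with 20 CPM (up to 10 per comparison) and the 3 genes most like each member. Gene positions were taken from GENCODE. Alternatives covered doublets, clustering, scaling, filters, depth and cells with other hormones.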

Additional observations from a re-analysis of the deposited data

How the results depend on the processing

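Counts of members past 1.5-fold moved as follows. In the Cre comparison the beta-like count went from 1 to 2, with Rab3a added, without doublet removal, with the automatic doublet threshold, with the exocytosis list kept among the variable genes, with a total without hormone and mitochondrial genes, with a 10% mitochondrial limit and with cells thinned to 3000 UMIs. The alpha-like count went from 3 to 0 under median-of-ratios scaling and with the total without hormones, and to 5 with no low-count filter. The delta-like count went from 5 to 3 with the automatic doublet threshold, with each library clustered alone, under median-of-ratios scaling and after thinning, and to 2 without cells over 1% other hormones. In the maternal comparison the beta-like count went from 1 to 0 under median-of-ratios scaling, with the total without hormones, with the 10% mitochondrial limit and within the shared cluster 0 (an alternative chosen after seeing the data), where Exph5 was 1.34-fold lower. The alpha-like count went from 0 to 1 without doublet removal and to 2 with no filter, and the delta-like count from 1 to 3 without cells over 1% other hormones. That setting left 14 to 49 delta-like cells per library, so its values rest on few cells. For control offspring against Cre-negative the count went from 2 to 1 under both other scalings, with Rab3a in place of Snap25 and Rab27a, and to 0 within cluster 0. The causes were not tested. Syt13 stayed lower with Cre in 11 of 11 alternatives (1.43- to 1.70-fold), and under median-of-ratios scaling it was below the rule's size with Rab3a past it, at 1.73-fold higher. Exph5 stayed lower in IHG offspring in 11 of 11 (1.34- to 1.6-fold). That scaling moved the median of all genes in the beta-like Cre comparison from -0.22 to -0.01 and the share of called genes that were higher from 26.2% to 52.8%. Leaving out each library in turn gave 8 members higher in beta-like than alpha-like cells and 4 to 6 against delta-like cells. No paired analysis was possible because each group has 1 library. Depth limits the values near or under 20 CPM: Stx1a and Exph5 in most classes, and Sytl4 outside beta-like cells.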
